A study of Homo sapiens with 2 samples.

Results

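The major histocompatibility complex (MHC) on 6p21 held 758 LSD2 peaks of 370863 distinct peaks in the whole list, and of 9966 on the short arm of chromosome 6 (6p). A peak counted as a member where its midpoint lay on chromosome 6 from 28477797 to 33448354 (hg19), and an interval on several lines of the deposited list counted once. The class I part ran from 28477797 to 31480000, the class III part from 31480001 to 32190000 and the class II part from 32190001 to 33448354. They held 70 peaks in class III, 162 in class II and 526 in class I. The rest of 6p, from its first peak to the 3.12 Mb peak-free stretch that separates the arms, held 9208 peaks over 53.7 Mb. Peaks came from chromatin immunoprecipitation followed by sequencing (ChIP-seq) in HepG2 cells, an established line from a human liver tumour, cultured with 25 mM glucose and 10% serum. The groups were LSD2 ChIP (1 library), precipitated with rabbit polyclonal antibodies to recombinant LSD2 (residues 26 to 822), and input chromatin with no antibody (1 library). All positions come from the authors' call of LSD2 against input, without a height or p-value per peak. With 1 library a group there is no replicate error and no test, and sequencing depth is unknown here.

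LSD2 is the product of KDM1B, a demethylase of histone H3 that uses flavin, and it has been found along the bodies of transcribed genes together with the H3 methyltransferase EHMT2, whose own gene lies in the MHC. The class I part carries genes such as HLA-B and HLA-C, whose cell-surface products show peptides from inside the cell to cytotoxic T cells, and before them a cluster of olfactory receptor genes. The class III part carries no HLA genes. It holds the complement genes C2, CFB, C4A and C4B, whose products hepatocytes secrete, the cytokine genes TNF, LTA and LTB, the heat-shock genes HSPA1A and HSPA1B, and EHMT2. The class II part carries the HLA-DR, HLA-DQ and HLA-DP genes, which are mainly used by antigen-presenting cells, and TAP1, TAP2, PSMB8 and PSMB9, which supply peptides to class I molecules. In the order of RefSeq's GRCh38.p14 gene table, 58 protein-coding genes stand between MICB and NOTCH4, the usual limits of class III. There are 19 between NOTCH4 and HLA-DPB1, 47 between HLA-F and MICB, and 20 between TRIM27 and HLA-F, of which 14 are olfactory receptor genes. That assembly is not the one the peaks are on, so no gene was placed on a peak.

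With each interval counted once, the class III part had the fewest peaks for its length, the class II part came next, and the class I part had about as many as the rest of 6p. Class III held 98.6 peaks per Mb (exact Poisson 95% interval 76.9 to 125), class II held 129 (110 to 150), class I held 175 (161 to 191) and the rest of 6p held 171 (168 to 175). These intervals treat peaks as independent and cover counting error only. Relative to the rest of 6p, density was 0.57 times in class III (exact 95% interval 0.45 to 0.73), 0.75 times in class II (0.64 to 0.88) and 1.02 times in class I (0.93 to 1.12). The MHC as a whole held 152 peaks per Mb, 0.89 times (0.82 to 0.96) the density of the rest of 6p. Among the parts, class III had 0.56 times the density of class I (0.43 to 0.72), class II had 0.73 times that of class I (0.61 to 0.88), and class III had 0.77 times that of class II, with an interval of 0.57 to 1.02 that includes 1. What is counted and the reference change these ratios. With every line counted, the ratio to the rest of 6p was 0.97 in class III (0.81 to 1.15), 0.86 in class II (0.74 to 0.99) and 1.06 in the MHC as a whole (0.99 to 1.13). Class III then had 1.13 times the density of class II (0.90 to 1.42). Copies of the same peak are not independent, so the intervals with every line counted are too narrow. Among peaks of at least 387 bp the ratio to the rest of 6p was 0.80 in class III (0.41 to 1.40), 0.67 in class II (0.40 to 1.07) and 1.18 in the MHC (0.98 to 1.43). Among these peaks class III had 1.18 times the density of class II (0.52 to 2.59). Against the autosomes other than chromosome 6 the ratio for all peaks was 0.75 in class III (0.58 to 0.95), 0.98 in class II (0.83 to 1.14) and 1.16 in the MHC (1.08 to 1.25).

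Density also varies along the arm, so each part was set beside consecutive windows of its own length over the rest of 6p. Windows as long as class III ranged from 70.4 to 263 peaks per Mb, and 2 of 74 were below class III. Windows as long as class II ranged from 106 to 242, and 3 of 42 were below class II. Windows as long as class I ranged from 122 to 218, and 9 of 17 were below class I. Windows as long as the whole MHC ranged from 131 to 202, and 1 of 10 was below the MHC. The class III and class II values therefore lay near the low end of the arm and the class I value near its middle, as a description of 1 pair of libraries.

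**Figure D1:**
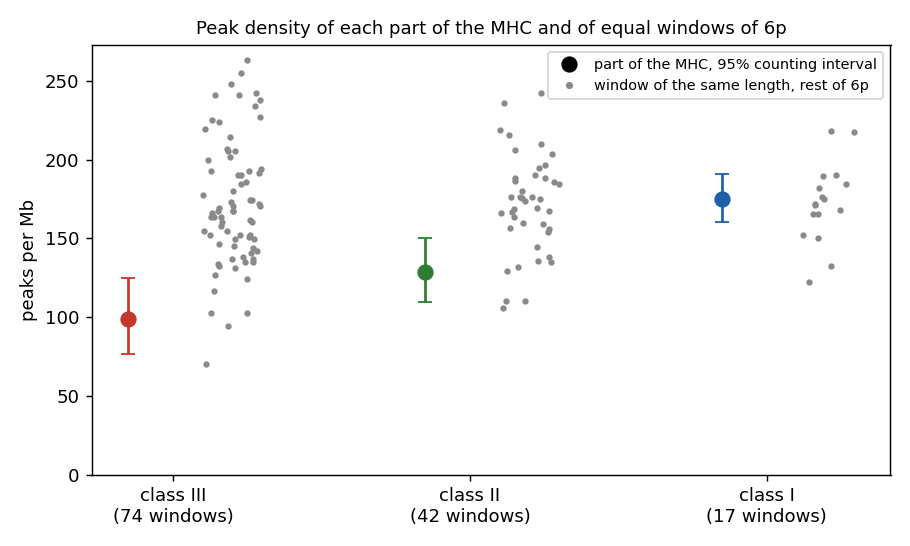
Peak density (peaks per Mb) of the class III, class II and class I parts as large points with exact Poisson 95% intervals, each beside grey points for windows of the same length over the rest of 6p. Class III at 98.6 has 2 of 74 grey points below it, class II at 129 has 3 of 42, and class I at 175 has 9 of 17.

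Along the MHC, counts per 100 kb window ranged from 6 to 31. The 6 windows wholly within class III held 8.17 ± 1.94 peaks (SD over windows), the 11 in class II held 12.7 ± 4.54, the 30 in class I held 17.5 ± 5.75, and the 536 windows of the rest of 6p held 17.1 ± 6.31. Fewer than 10 peaks were found in 5 of the 6 class III windows, 4 of the 11 class II windows, 1 of the 30 class I windows and 11.4% of the windows in the rest of 6p. The 6 class III windows leave out the one from 31477797 to 31577796, which crosses the class I border. It lies mostly in class III and held 20 peaks. The fullest of the 6, from 31877797 to 31977796, held 11 peaks, fewer than the class I median of 17. The emptiest held 6 peaks, in the windows from 31677797 to 31777796 and from 31977797 to 32077796. Class II reached 20 peaks from 32877797 to 32977796 and had its lowest count of 8 in the windows starting at 32377797, 33177797 and 33277797. Class I reached 31 peaks from 28777797 to 28877796, and its lowest window, from 29677797 to 29777796, held 6.

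**Figure D2:**
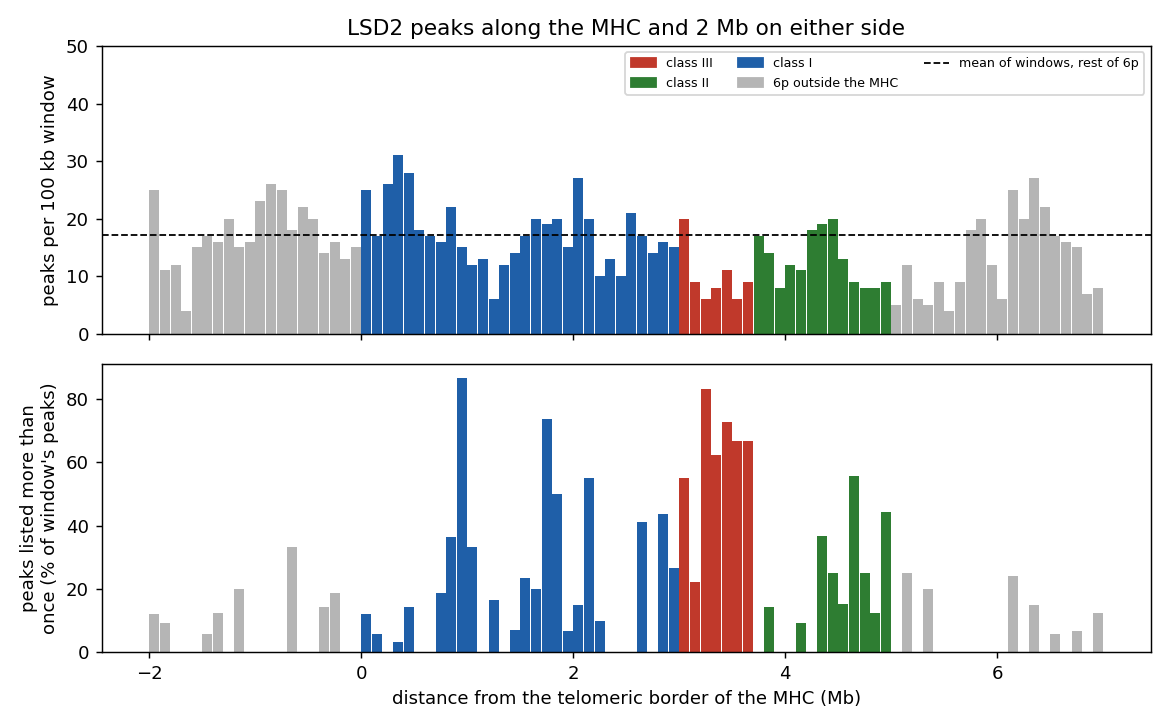
Upper panel, peaks per 100 kb window against distance (Mb) from the telomeric border of the MHC, coloured by the part that holds the window's centre, with 2 Mb on either side in grey and the mean of the windows in the rest of 6p dashed. Lower panel, the share of each window's peaks that stand on more than 1 line of the list. Class III windows after the first are low in the upper panel, at 6 to 11 peaks, and hold 22.2% to 83.3% repeated peaks in the lower one.

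The first 500 kb of class I, the telomeric end of the MHC, stood apart from the remainder of class I. It held 127 peaks, or 254 per Mb (212 to 302), with a median width of 236 bp, whereas the remaining 2.50 Mb held 399 peaks, or 159 per Mb (144 to 176), with a median width of 186 bp. Wide peaks, here those of at least 387 bp (the highest 10% of the whole list by width), numbered 41 in the first 500 kb, or 82.0 per Mb, and 54 in the rest of class I, or 21.6 per Mb. The rest of 6p had 21.2 such wide peaks per Mb. None of its 106 windows of 500 kb exceeded 82.0 wide peaks per Mb, with 72 as the highest, and 3 of the 106 exceeded 254 peaks per Mb of any width. This stretch was chosen after its values were seen. Without it, class I had 0.93 times the peak density of the rest of 6p (0.84 to 1.03) and 1.02 times its density of wide peaks (0.76 to 1.34), against 1.49 times (1.20 to 1.84) for wide peaks over all of class I. The sparsest 500 kb of class I, from 29477797 to 29977796, held 57 peaks, or 114 per Mb, and 2 wide ones.

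The median peak was 222 bp wide in class III (95% interval of the median 163 to 282 bp), 188 bp in class II (167 to 246 bp), 196 bp in class I (179 to 216 bp) and 186 bp in the rest of 6p (182 to 189 bp), so each interval of a part includes the median of the rest of 6p. The class III median lay above 66 of 74 windows of its length, the class II median above 24 of 42 and the class I median above 12 of 17. Mean width was 264 ± 138 bp in class III, 247 ± 123 bp in class II, 270 ± 168 bp in class I and 247 ± 132 bp in the rest of 6p (SD over peaks). Peaks of 400 bp or more made up 10 of 70 in class III (14.3%), 12 of 162 in class II (7.41%), 82 of 526 in class I (15.6%, exact binomial interval 12.6% to 19.0%) and 10.1% in the rest of 6p (9.52% to 10.8%). Of those 82 in class I, 35 lay in the first 500 kb. Peaks covered 2.60% of class III, 3.18% of class II, 4.73% of class I and 4.24% of the rest of 6p. Over the 49 whole windows of 100 kb, count and median width had a Spearman's rho of 0.30. These windows come from the same libraries, and rho is given as a description.

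**Figure D3:**
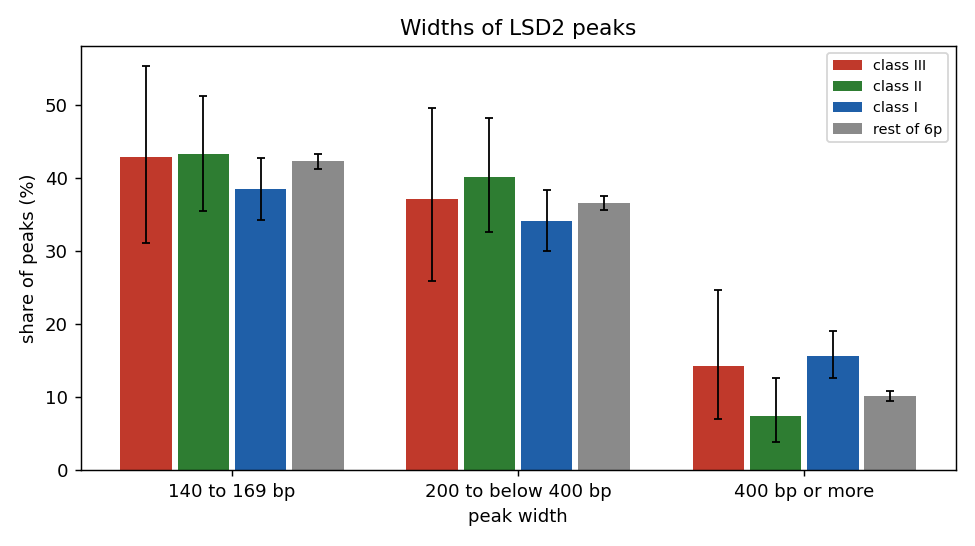
Share of peaks (%) in 3 ranges of width for class III, class II, class I and the rest of 6p, with exact binomial 95% intervals. Intervals of the parts are wide, and only the class I bar at 400 bp or more (15.6%) has an interval that lies above that of the rest of 6p (10.1%).

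Of the 10 widest peaks of the MHC 8 were in class I, which held 69.4% of the members. The widest, from 28949039 to 28950600, was 1562 bp and another of 1171 bp lay from 28945297 to 28946467, both in the dense first 500 kb. These were the only 2 peaks of 1000 bp or more among the 758 members (0.26%, 0.03% to 0.95%). The rest of 6p had a similar share, 23 of 9208 (0.25%, 0.16% to 0.37%). Peaks of 877, 839 and 809 bp also lay in the first 500 kb, starting at 28918212, 28696714 and 28779412. Farther along class I came peaks of 969 bp from 30730252 to 30731220, of 890 bp from 30583672 to 30584561 and of 881 bp from 30007422 to 30008302. Class III had 1 of the 10, of 824 bp from 32093561 to 32094384. Class II also had 1, of 994 bp from 33222852 to 33223845, with its next peak 111 bp away.

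Class II had few short gaps and class III many long ones. In class II 12 of 162 gaps (7.41%, 3.89% to 12.6%) were under 1 kb, against 15.7% in class III (8.11% to 26.4%), 17.7% in class I (14.5% to 21.2%) and 19.3% in the rest of 6p (18.5% to 20.1%). All 42 windows of the same length in the rest of 6p had a larger share than class II, the lowest at 9.02%. In class III 13 of 70 (18.6%, 10.3% to 29.7%) were over 20 kb, against 6.79% in class II (3.44% to 11.8%), 3.61% in class I (2.19% to 5.58%) and 3.60% in the rest of 6p (3.22% to 4.0%). The median gap was 5071 bp in class III (2977 to 7348 bp), 5496 bp in class II (4225 to 6632 bp), 3376 bp in class I (2907 to 4117 bp) and 3481 bp in the rest of 6p (3370 to 3603 bp). The class III median, on 70 gaps, has an interval that includes that of the rest of 6p. The class II interval lies above it.

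**Figure D4:**
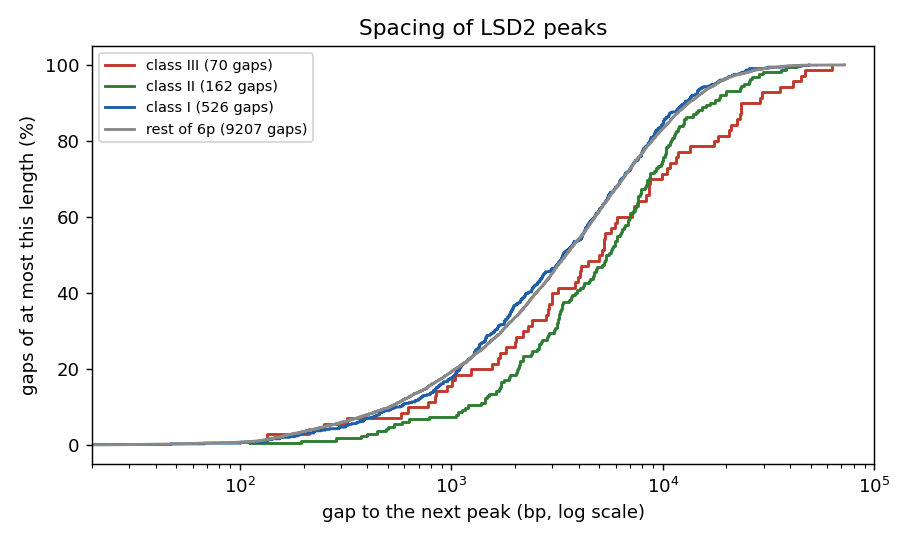
Cumulative share of gaps (%) by gap length (bp, log scale) for class III, class II, class I and the rest of 6p. The class II curve runs lowest up to about its median of 5496 bp, the class III curve is lowest at long gaps, where 18.6% exceed 20 kb, and class I follows the rest of 6p.

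Peak-free stretches over 20 kb took up 59.9% of class III, against 24.8% of class II, 17.2% of class I and 17.1% of the rest of 6p. Among 74 windows as long as class III, 1 had a larger share, at 61.4%. Outside such stretches class III had 246 peaks per Mb, class II 171, class I 212 and the rest of 6p 207. The length left out is set by the same peaks, so these densities must exceed the plain ones, and most in class III. They do not show that class III is denser than the arm. The 13 long gaps divided the 70 class III peaks into 14 groups of 1 to 20 peaks, a division made after the gaps had been seen. The largest group held 20 peaks over 85.4 kb at the class I border, from 31481105 to 31566521. A group of 11 peaks ran from 31886950 to 31941529 and one of 9 from 32093561 to 32148259, while 3 groups were single peaks. The longest gap of the MHC, 62.9 kb from 31941530 to 32004476, followed the group of 11. Class III also held the gaps of 47.2 kb from 31799830 to 31846982 and of 45.2 kb from 31614525 to 31659702. Class I held the other two of the 5 longest, 49.3 kb from 29708707 to 29758034 and 45.2 kb from 30837148 to 30882374. The longest gap within the rest of 6p was 72.6 kb. Mappability was not analysed here, and a stretch without a called peak need not lack LSD2.

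Series of 5 or more peaks, each within 2 kb of the next, numbered 8 in the MHC and 100 in the rest of 6p, or 1.06 and 1.09 per 100 peaks. The longest held 6 peaks in the MHC and 11 in the rest of 6p, which has more peaks, and none reached 15 in either. One series of 6 ran from 28908726 to 28913567, with a median width of 456 bp, and the other from 30582518 to 30588897, with a median of 403 bp and every peak listed at least 2 times. The series of 5 named with them lay from 28828938 to 28833520. Peaks under 200 bp from a neighbour made up 5.15% of the members (3.68% to 6.97%), against 7.07% in the rest of 6p (6.55% to 7.61%). Peaks over 20 kb from both neighbours numbered 4 among the members (0.53%, 0.14% to 1.35%), of which 2 were in class III, 1 in class II and 1 in class I, and 25 in the rest of 6p (0.27%, 0.18% to 0.40%).

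The deposited list repeated members of the MHC at 3.06 times the rate of the rest of 6p. An interval on more than 1 line was found for 176 of the 758 members (23.2%, exact binomial interval 20.3% to 26.4%), against 699 of 9208 peaks in the rest of 6p (7.59%, 7.06% to 8.15%) and 10.1% of the whole list. In class III it was 41 of 70 (58.6%, 46.2% to 70.2%), in class II 29 of 162 (17.9%, 12.3% to 24.7%) and in class I 106 of 526 (20.2%, 16.8% to 23.8%). These intervals treat peaks as independent. Repeated peaks came in stretches, so the intervals are likely too narrow. The class III share was above all 74 windows of its length in the rest of 6p, whose highest was 38.7%, and the class I share above all 17 of its length, whose highest was 14.7%. For class II, 4 of 42 windows were higher. The reason for the repetition was not given in the sources used here, so the share describes the deposited list and is not shown to measure LSD2.

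**Figure D5:**
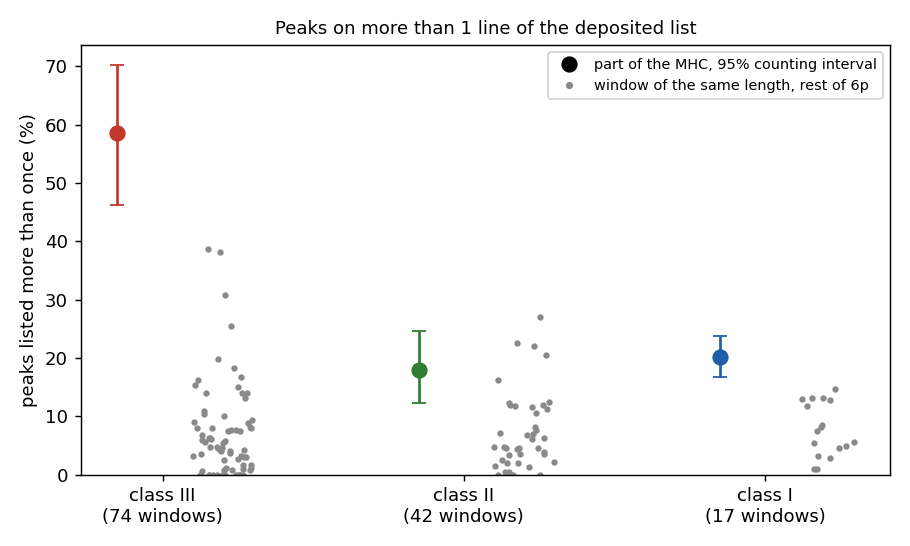
Share of peaks (%) on more than 1 line of the deposited list for class III, class II and class I, as large points with exact binomial 95% intervals, beside windows of the same length over the rest of 6p in grey. The intervals treat peaks as independent. Class III at 58.6% and class I at 20.2% lie above all of their grey points, and class II at 17.9% below 4 of 42.

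Repeated peaks came in stretches. In class I, 22 successive peaks from 30237702 to 30312233 and 21 from 29352135 to 29461607 were all repeated, and without these 43 peaks the class I share was 13.0% (10.2% to 16.4%) and the MHC share 18.6% (15.8% to 21.7%). In the first 500 kb of class I, where peaks were dense and wide, 9 of 127 were repeated (7.09%). The longest such stretches elsewhere held 7 peaks each, in class III from 31659703 to 31728516 and in class II from 32781813 to 32817892. Every whole class III window of 100 kb held repeated peaks, between 2 of 9 and 5 of 6. In class II, 13 of 80 peaks from 32477797 to 32977796 were repeated, and 14 of 44 from 32977797 to its end. The peaks listed most often were 1 in class III from 31684654 to 31685023, on 6 lines, and 1 in class II from 32809929 to 32810078, on 5 lines. The rest of 6p had no peak on more than 4 lines. In the whole list 71 peaks stood on 5 lines and 30 on 6, and the highest number of lines was 21. Repeated members had a median width of 207 bp (174 to 240 bp) and members listed once 189 bp (177 to 215 bp), with intervals that overlap. In the rest of 6p repeated peaks had a median of 211 bp (198 to 234 bp) and peaks listed once 184 bp (180 to 188 bp), with intervals that do not overlap.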

How the data were processed

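LSD2 ChIP and input DNA from HepG2 cells were sequenced on Ion PGM and Ion Proton instruments, per the labels. The submitters' processing notes name BWA and hg19. Per the file headers, the authors trimmed reads, removed duplicates and called peaks with MACS. The settings were 120 bp reads and fragments, 2700 Mb as effective genome size and a cutoff of 1e-05 on p. The headers also give an enrichment factor of 32. Without a height per peak, the list does not show that each peak passed that factor. Names of the ChIP and input read sets there differ in date, so antibody and run cannot be told apart. Tool versions were not given in the sources used here. Deposited were peak starts and ends in bases. Peak number and width move with depth, which is unknown here, and with DNA copy number, which was not measured.

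Positions are counted from 1. Identical lines were joined, and a gap runs from the end of a peak to the start of the next and belongs to the part that holds the first of them. The stretch between the arms was left out of gaps. Density intervals are exact Poisson, shares have exact binomial intervals, density ratios have intervals from the exact binomial share of both counts, and medians have binomial rank intervals, all at 95%. All of these intervals treat peaks as independent. Windows counted from the start of the MHC, and for comparison from the borders of the rest of 6p. The rule for positions named took the 10 widest peaks, the densest and sparsest 100 kb window of each part, the 5 longest gaps and the 3 longest close series. The members and these rules were chosen with earlier results of these data known. The first 500 kb of class I, the class III groups, the share of length in long gaps and the repeated listing were followed after their values were seen. The computation of the measures was tested on simulated data with evenly spaced peaks in the MHC. That test does not cover the intervals for clustered peaks. Python 3.11.15, pandas 2.3.3 and SciPy 1.17.1 were used. No sequence is printed, as no genome of this build was used here.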

Additional observations from a re-analysis of the deposited data

How the results depend on the processing

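Of 228 alternative values for density ratios, widths, gaps and repeated listing, 203 stayed within the 95% interval of the value given and 25 lay outside it, and the causes were not tested. Some of the 203 could not move. Membership by any overlap changed no value, as no member crosses a border, and moving the inner borders cannot change values of the whole MHC. The count of 203 therefore overstates how stable the values were. Direction turned in 3 values where the interval of the value given excluded no difference, all for the density of the MHC. It also turned in 12 where that interval included no difference, 7 of them within that interval. The alternatives for repeated listing and for class III over class II were chosen after seeing the data, and the others were planned. The density ratio of the MHC to the rest of 6p turned to 1.18 (0.98 to 1.43) for peaks of at least 387 bp and 1.06 (0.99 to 1.13) with every line counted. Both of these intervals include 1. Against the autosomes other than chromosome 6 the ratio was 1.16 (1.08 to 1.25). With the peaks of at least 387 bp the ratio to the rest of 6p was 0.80 for class III and 1.49 for class I. For these wide peaks class II over class I was 0.45, class III over class II was 1.18, and median gap ratios were 0.64 for the MHC and 0.53 for class I. With every line counted the ratio was 0.97 for class III and 1.16 for class I, class III over class I was 0.83 and class III over class II was 1.13. Against the other autosomes density ratios were 0.75 for class III, 0.98 for class II and 1.33 for class I, and median gap ratios 0.94 for the MHC and 0.80 for class I. The share of gaps under 1 kb, minus that of the rest of 6p in percentage points, was -0.23 for the MHC, -6.67 for class II and 2.28 for class I among peaks of at least the median width, and -0.99 for the MHC and -5.79 for class II among wide peaks. The excess share of repeated peaks was 35.7 points in class III with its borders moved out by 100 kb, against 51.0, and 1.02 in class II among wide peaks, against 10.3. Gaps up to 3 kb gave a longest series of 12 peaks and no run of 15, and windows of 50 kb gave a rho of 0.12 between count and width. No paired analysis was possible because LSD2 ChIP and input had 1 library each. Depth is unknown, so a part with few peaks cannot be told from one with too few reads.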
